A study of Mus with 8 samples.

Results

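C/EBPβ binding was examined around Klf4, Klf5 and Egr2, which encode early transcription factors of the adipogenic program, in C/EBPβ ChIP-seq peak lists of 3T3-L1 cells, a mouse line of preadipocytes. The members were all deposited peaks in a window around each gene on the mm9 genome: chr4:55440000-55645000 for Klf4 (205 kb), chr14:99590000-99815000 for Klf5 (225 kb) and chr10:66895000-67105000 for Egr2 (210 kb). The windows held 17 of the 42729 peaks in the 4 lists. C cells had been infected with a lentivirus carrying a scrambled hairpin, and P cells with one whose hairpin lowers Prep1, a homeodomain transcription factor. All cells were thus infected and selected cultures of the same line. Chromatin came from uninduced cells at day −2, that is 2 days before the inducers were added, or from cells 4 h after addition of 1 μM dexamethasone, 0.5 mM IBMX and 1 μg/ml insulin. Each of the 4 conditions had 1 ChIP library and 1 input library. With no replicates, no test between conditions was possible. Intervals of fragments and of their ratios cover counting error in these libraries only. Those of peak numbers and shares treat peaks as independent, which neighbouring peaks are not, and serve as description.

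C/EBPβ is a basic leucine zipper factor that is active within hours of adipogenic induction, ahead of Pparγ and C/EBPα, the regulators of the later stage. Egr2, also called Krox20, is a zinc finger factor of the immediate early response, and Klf4 is a Krüppel-like zinc finger factor. Both are known to act upstream, at the gene for C/EBPβ itself. Klf5 is a further Krüppel-like factor, which is known to be induced by C/EBPβ and C/EBPδ and to act at the Pparg promoter. The windows thus cover 2 genes placed above C/EBPβ in this cascade and one placed below it.

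The ChIP depth, derived from the peak caller's background, was between 7.82 and 7.85 M reads in the 4 libraries. The whole lists numbered 838 (C) and 1653 (P) peaks at day −2, and 13525 (C) and 26713 (P) at 4 h. The distances given below run from the middle of each window, since gene positions of this build were not used here, and a negative distance lies on the side of lower coordinates. In GRCm38 the nearest protein-coding genes on either side are Rad23b and Actl7b for Klf4, Pibf1 and Klf12 for Klf5, and Nrbf2 and Ado for Egr2. No peak was assigned to a gene.

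The first question was whether C/EBPβ was already bound at these loci before induction. No peak was listed in any of the 3 windows at day −2, in C cells or in P cells. A count of 0 in a window has an exact Poisson upper limit of 3.69 peaks. That limit treats peaks as independent and does not estimate how many were missed. At the genome background of these libraries, 6 fragments at a summit would have passed the −log10 p threshold of 5, so weaker binding was not detectable at this depth. An empty window at day −2 was also usual. Of windows of the same size elsewhere, 87.8% at the size of the Klf4 window had no day −2 peak in either list, against 86.7% at the size of Klf5 and 87.5% at that of Egr2. Among windows with at least as many 4 h peaks in both cell types as the locus, the share was lower, at 50.3% for Klf4, 58.1% for Klf5 and 64.7% for Egr2.

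The nearest day −2 peaks lay outside the windows. On the lower side of Klf4, 77.2 kb before the window, a site was listed in all 4 conditions. Its fold enrichment, the ratio of ChIP to input background at the summit, was 13.2 (C) and 14.3 (P) at day −2, and 18.6 (C) and 18.0 (P) at 4 h. Its fragments at the summit numbered 21 (C) and 23 (P) at day −2, and 27 (C) and 53 (P) at 4 h, so the cell types were close in fold enrichment at 4 h but not in fragments. Beyond the other edge of Klf4, the nearest day −2 peak of P cells was 86.2 kb away with a fold enrichment of 18.5 and 30 fragments, and that of C cells 99.9 kb away with a fold enrichment of 8.04 and 16 fragments. Around Klf5, P cells had a day −2 peak 14.7 kb past the upper edge (fold enrichment 8.88, 13 fragments), whereas the nearest one of C cells was 1920 kb past that edge. Around Egr2, C cells had one 92.4 kb before the window (fold enrichment 6.35, 18 fragments), and the nearest P peak was 257 kb past the other edge.

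After 4 h of induction all 3 loci had C/EBPβ peaks in both cell types. The Klf4 window held 2 C peaks and 6 P peaks, the Klf5 window 2 and 3, and the Egr2 window 1 and 3. In all, C cells had 5 peaks (exact Poisson interval 1.62 to 11.7) and P cells 12 (6.20 to 21.0). The P to C ratio was 2.40, against 1.98 for the whole lists. Its exact interval of 0.787 to 8.70 treats the P and C peaks as independent. All 5 C peaks overlapped P peaks, so the interval does not bear on whether the numbers were equal. Merging peaks that overlap gave 12 sites, here numbered along each chromosome. Of these, 5 were listed in both cell types and 7 in P cells alone, while 0 were listed in C cells alone. Over the whole 4 h lists, 14.1% of C peaks had no overlapping P peak. The P-exclusive share was 58.3% of the P peaks (95% Wilson interval 32.0 to 80.7), against 56.8% of all P peaks at 4 h. This interval takes the 12 P peaks as independent, although 4 of them lie in the close couples described below. With the P list shortened to the length of the C list by −log10 p, the P-exclusive peaks were 0 at Klf4, 0 at Klf5 and 2 at Egr2, and 1 C-exclusive peak appeared at Klf5, so these numbers depend on the length of the lists.

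**Figure D1:**
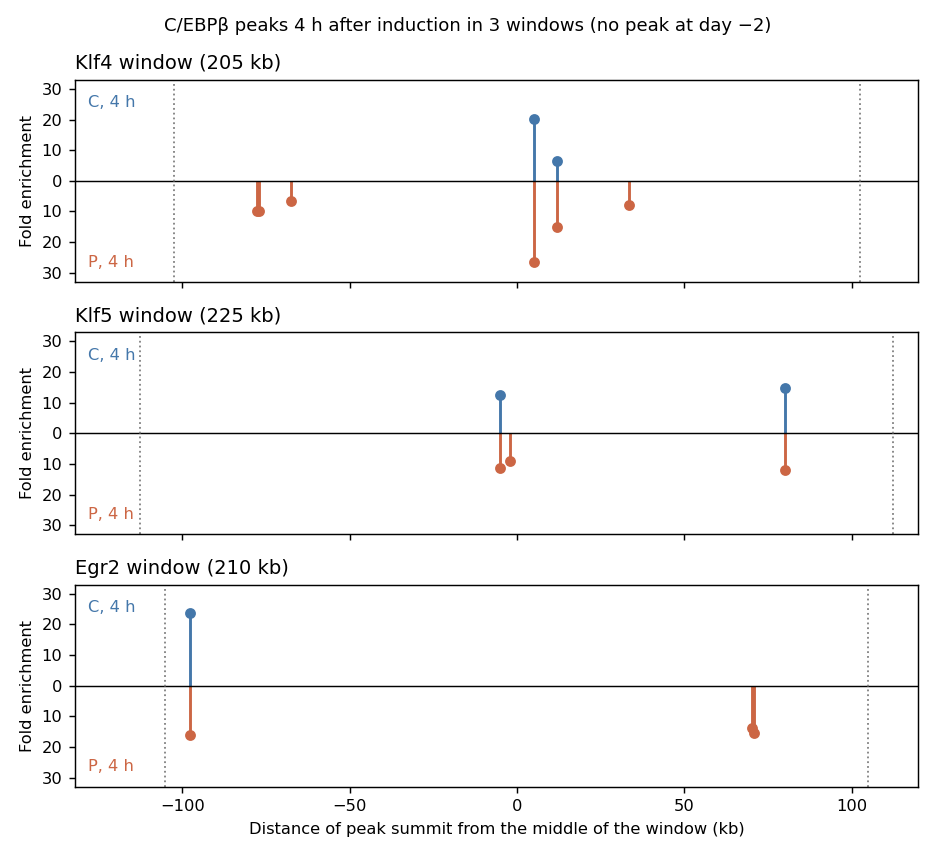
Fold enrichment (vertical axis) of each C/EBPβ peak 4 h after induction by the distance of its summit from the middle of the window in kb, with C cells drawn upward and P cells downward and dotted lines at the window edges. Each of the 5 C peaks faces a P peak, and 7 P peaks have no partner. Over the whole 4 h lists, 14.1% of C peaks and 56.8% of P peaks had none.

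At Klf4 the strongest site lay 5.1 kb above the middle (Klf4 site 4). In C cells the peak was chr4:55547448-55547701, with a fold enrichment of 20.1 and a −log10 p of 41.9. In P cells it was chr4:55547421-55547732, with a fold enrichment of 26.5 and a −log10 p of 68.3. The summits were 4 bp apart. The fragments at the summit, recovered from fold enrichment and p, numbered 29 in C cells (19.4 to 41.6) and 52 in P cells (38.8 to 68.2), a P to C ratio of 1.79 (1.12 to 2.93). Relative to the genome-wide level, the input background there was 1.03 for C and 2.17 for P, so fold enrichment differed less than the fragments did. These stand for a background of only 0.49 (C) and 1.0 (P) fragments, and 2.17 was also the median over all P peaks at 4 h.

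A weaker site followed 6.88 kb further (Klf4 site 5). The C peak, chr4:55554406-55554799, had a fold enrichment of 6.52, a −log10 p of 10.2 and 12 fragments. The P peak, chr4:55554051-55554835, had a fold enrichment of 15.1, a −log10 p of 32.9 and 31 fragments. This was a P to C ratio of 2.58 in fragments (1.29 to 5.52) and of 2.32 in fold enrichment. The P peak was 785 bp wide, and 0.809% of the P peaks at 4 h were at least as wide. At both shared Klf4 sites the interval of the fragment ratio lay above 1. It also included 1.63, the median ratio over all peak pairs shared by the 4 h lists. Of all these pairs, 88.5% had more fragments in P cells.

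The other 4 Klf4 sites were listed in P cells alone, and their values were lower than those of the shared sites in P cells. Sites 1 and 2 lay 77.7 and 77.0 kb below the middle, at chr4:55464698-55464927 and chr4:55465372-55465558, with their summits 678 bp apart. Site 1 had a fold enrichment of 9.72, a −log10 p of 14.9 and 14 fragments, and site 2 of 10.0, 16.6 and 17 in the same order. Site 3, at chr4:55474895-55475072, was the weakest of all members in P cells, with a fold enrichment of 6.49, a −log10 p of 9.08 and 12 fragments. Site 6, at chr4:55575964-55576188 and 33.6 kb above the middle, had a fold enrichment of 7.99, a −log10 p of 12.5 and 15 fragments.

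Whether an unlisted C site lacked fragments cannot be read from the lists. At the same background relative to the genome's, 6 fragments in C cells would have passed the p threshold at Klf4 site 1, 7 at site 2, and 8 at sites 3 and 6. The Poisson interval of the P fragments lay above this number at sites 1, 2 and 6 (7.65 to 23.5, 9.90 to 27.2 and 8.40 to 24.7) and included it at site 3 (6.20 to 21.0). A peak must also span a fragment length, so a C site could hold that many fragments at its summit and still be missing.

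At Klf5, the member placed downstream of C/EBPβ, both shared sites had values that were slightly lower in P cells. Klf5 site 1 lay 5.0 kb below the middle. Its C peak, chr14:99697411-99697630, had a fold enrichment of 12.5, a −log10 p of 23.0 and 19 fragments. Its P peak, chr14:99697402-99697614, had a fold enrichment of 11.3, a −log10 p of 18.2 and 16 fragments. The fragment ratio was 0.842 (0.405 to 1.73). Klf5 site 3 lay 80.0 kb above the middle. The C peak there, chr14:99782404-99782634, had a fold enrichment of 14.9, a −log10 p of 28.3 and 21 fragments. The P peak, chr14:99782407-99782615, had a fold enrichment of 11.9, a −log10 p of 19.7 and 17 fragments, a ratio of 0.810 (0.401 to 1.61). Both intervals include 1, so a difference beyond counting error was not shown. The median of 1.63 over all shared pairs lay inside the interval of site 1 and above that of site 3.

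Between them, 2.1 kb below the middle and 2.89 kb from site 1, P cells alone had Klf5 site 2 at chr14:99700331-99700525. Its fold enrichment was 8.99, its −log10 p 15.0, and its 17 fragments (9.90 to 27.2) were above the 8 that C cells would have needed. With 17 fragments it matched P fragments at site 3, while its input stood at 2.17 times the genome-wide level against 1.10 there. In fragments this was a background of only 1.0 against 0.509. Site 2 and site 1 were thus the peaks nearest to the middle of any of the 3 windows.

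At Egr2 the strongest C peak of all 3 loci was found, far from the middle. Egr2 site 1 lay 97.8 kb below it. The C peak, chr10:66902087-66902396, had a fold enrichment of 23.6, a −log10 p of 73.0 and 61 fragments (46.7 to 78.4), and 2.54% of C peaks at 4 h had a −log10 p at least as high. The P peak, chr10:66902103-66902385, had a fold enrichment of 16.0, a −log10 p of 46.1 and 47 fragments (34.5 to 62.5), and 16.0% of P peaks were at least as strong. The summits were 5 bp apart. The fragment ratio was 0.770 (0.515 to 1.15), and fold enrichment in C cells was 1.47 times that in P cells. Input at this site was the highest among the members, 3.43 times (C) and 4.34 times (P) the level of the genome. These stand for a background of only 1.63 (C) and 2.0 (P) fragments, and the input levels have no interval here.

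On the other side of the Egr2 window, P cells alone had a couple of sites with summits 720 bp apart. Egr2 site 2, chr10:67070193-67070440, had a fold enrichment of 13.9, a −log10 p of 26.5 and 24 fragments (15.4 to 35.7). Egr2 site 3, chr10:67070902-67071164, had a fold enrichment of 15.6, a −log10 p of 29.9 and 25 fragments (16.2 to 36.9). These were the strongest of the 7 P-exclusive sites, and C cells would have needed 7 and 6 fragments there. Of the P peaks at least as strong as site 2, 23.4% had no C peak, and 19.2% of those at least as strong as site 3. For the weaker P-exclusive sites the share was between 40.4% and 55.0% at the 4 Klf4 sites, and 44.7% at Klf5 site 2. Within 70 kb of the middle of the Egr2 window, no peak was listed in any condition.

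**Figure D2:**
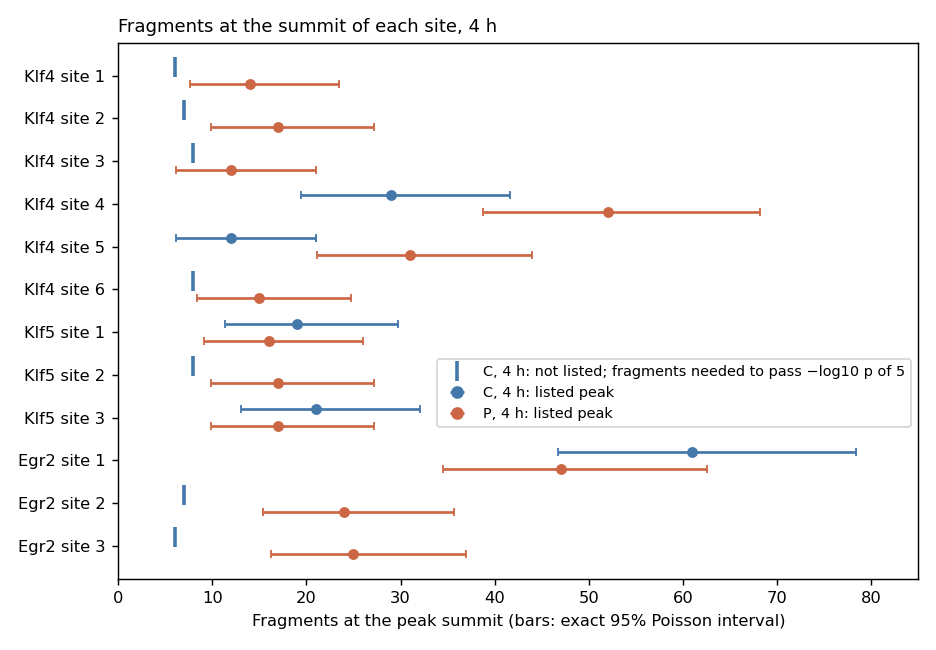
Fragments at the peak summit (horizontal axis) for the 12 sites, as points with exact 95% Poisson intervals, in C and P cells at 4 h, with a tick at the number of fragments needed where C cells had no listed peak. P points lie above C points at the shared Klf4 sites and below them at the shared Klf5 and Egr2 sites, and the intervals of both cell types overlap at every shared site except Klf4 site 5.

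The shared sites were then set against all common pairs of the 4 h lists. Among all 11616 pairs, P cells had the higher fold enrichment in 82.2% and the lower one in 17.8%. Here they had the higher one in 2 of 5. The log2 ratio of P to C over all pairs had a median of 0.62 (quartiles 0.17 and 1.06). The log2 ratio was 0.39 and 1.21 at the Klf4 pairs, −0.15 and −0.32 at the Klf5 pairs and −0.56 at the Egr2 pair. Of all pairs, 36.3% and 81.4% had a ratio at or below those of the Klf4 pairs. The share was 12.6% and 8.16% for the Klf5 pairs and 3.85% for the Egr2 pair. Of windows of the Klf4 size that held 2 common pairs, 67.8% had a higher fold enrichment in P cells in both, as Klf4 had. Of windows of the Klf5 size that held 2 common pairs, 3.74% had a lower fold enrichment in P cells in both. Of windows of the Egr2 size with 1 common pair, 18.9% had a lower value in P cells. In each case the direction counted was the one seen at the locus itself, so these shares are descriptions only.

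Fragments gave the same directions. They were more numerous in P cells in 88.5% of all pairs and in both Klf4 pairs, and fewer in 9.1% of all pairs and in the Klf5 and Egr2 pairs. Summed over the shared sites of a locus, Klf4 had 83 fragments in P cells and 41 in C cells (ratio 2.02, 1.38 to 3.02), Klf5 33 and 40 (0.825, 0.504 to 1.34), and Egr2 47 and 61 (0.770, 0.515 to 1.15). The median ratio over all common pairs was 1.63, inside the Klf4 interval and above the Klf5 and Egr2 intervals. Over all common pairs the quartiles were 1.26 and 2.08. Of these pairs, 60.4% and 89.4% had a fragment ratio at or below those of Klf4 sites 4 and 5, 4.86% and 3.89% at or below those of Klf5 sites 1 and 3, and 2.95% at or below that of Egr2 site 1. The intervals above cover counting error and not this spread between sites, and the summits compared were up to 66 bp apart. With 1 library per condition these are differences between libraries, and whether they would recur in other cultures is not known.

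**Figure D3:**
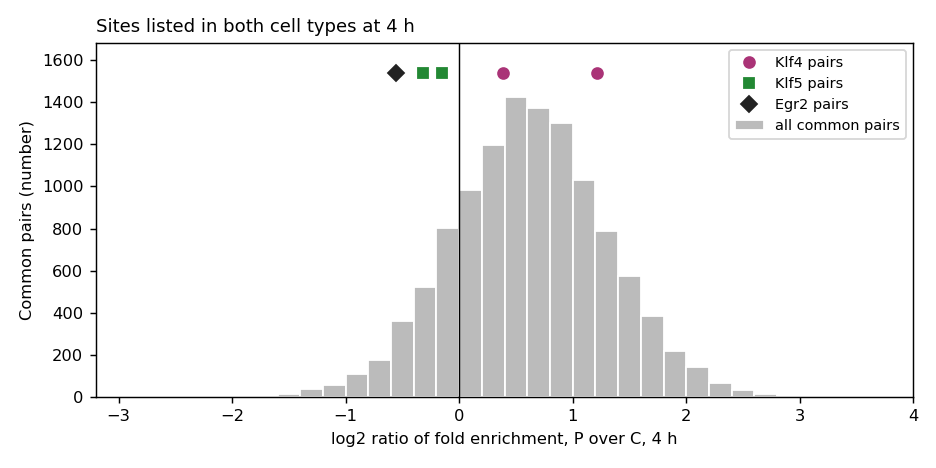
Number of common 4 h pairs (vertical axis) by the log2 ratio of fold enrichment in P over C cells, with the 5 pairs of the 3 loci marked above the bars at their own ratio. The Klf4 pairs lie inside the bulk of the pairs, and those of Klf5 and Egr2 lie left of 0, where 17.8% of all pairs are.

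A close couple of sites occurred among the P-exclusive peaks of Klf4 and among those of Egr2, while Klf4 sites 3 and 6 belonged to none. Of the 7 P-exclusive peaks, 4 had another P summit within 1 kb, against 9.03% of all P-exclusive peaks at 4 h. They form 2 couples, at Klf4 sites 1 and 2 and at Egr2 sites 2 and 3, and the peaks of a couple are not independent of each other. In each couple both peaks were P-exclusive. Over the whole list, 5.54% of the P-exclusive peaks had another P-exclusive summit within 1 kb. The spacing was looked at only once these values were known.

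Finally, the density of peaks was compared with windows of the same size laid end to end over chromosomes 1 to 19 and X. At 4 h a window of the Klf4 size held a mean of 1.05 C peaks and 2.08 P peaks. At least 2 C peaks were found in 25.2% of these windows and at least 6 P peaks in 11.6%. For Klf5, 27.2% of windows had at least 2 C peaks and 32.6% at least 3 P peaks. For Egr2, 43.8% had at least 1 C peak and 30.8% at least 3 P peaks. The median window held 0 C peaks and 1 P peak at each size, and the densest reached 26 P peaks. The rank of a locus depended on which windows were counted. Among windows with a peak in any list, 74.0% had at least the C peaks of Egr2, 52.0% its P peaks and 53.9% the P peaks of Klf5, and Egr2 held 0 peaks in a window of 50% of the width. Given its 2 C peaks, the 6 P peaks of Klf4 were matched or passed in 16.3% of windows with 2 C peaks. The corresponding share was 71.6% for Klf5 and 34.8% for Egr2.

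**Figure D4:**
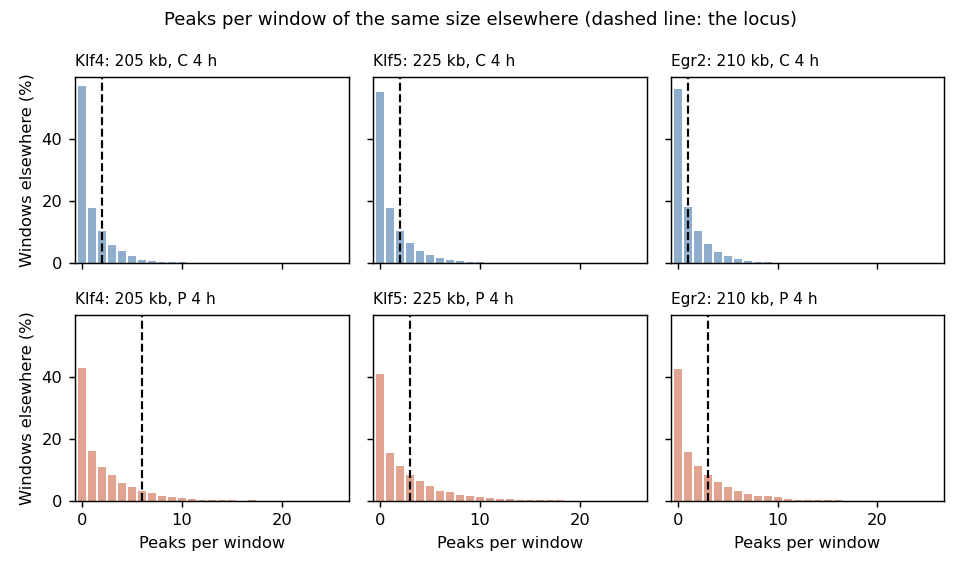
Share of windows elsewhere (vertical axis, percent) by the number of 4 h peaks they hold, for windows of the size of each locus, in C cells (upper row) and P cells (lower row), with a dashed line at the number of peaks in the locus. The line lies right of the tallest bar, at 0 peaks, in all 6 panels, and farthest right for Klf4 in P cells at 6 peaks.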

How the data were processed

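The members and comparisons were chosen with earlier results of these data known. Per the labels and methods, the authors aligned Ion Torrent reads to mm9 with Bowtie 0.12.8, kept unique reads, equalised read numbers with SAMtools 1.3.1 and called peaks with MACS2 2.0.10.20131028 in 1 ChIP library against input per condition. The deposited lists give a fold enrichment ratio of ChIP over local input background, a −log10 p, a −log10 q and a score (not used here). Windows were read from coordinates, and a peak was a member when it overlapped one. Peaks were paired by an overlap of at least 1 bp, each C peak with the P peak of highest −log10 p. Fragments and background were recovered from fold enrichment and p, the caller's ratio having 1 added to both terms and p being a Poisson tail. Whole fragments were found for 100% of peaks within 0.002 of the −log10 p. A second whole number fitted within that tolerance for at most 0.61% of the peaks of a list. This was tested on simulated data. Depth assumes the caller's default genome of 2.7e+09 bp. Every site is given in full. Named sites were to be those with a day −2 peak and the 5 strongest per locus. Sequences were not analysed here. Counts have exact Poisson intervals, ratios intervals from the exact Clopper-Pearson limits of the share, and shares Wilson intervals (95%). Peak names in both 4 h lists carry an hour tag of 5. The labels were followed. Python 3.11.15, scipy 1.17.1, pandas 2.3.3, statsmodels 0.14.6 and matplotlib 3.10.9 were used.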

Additional observations from a re-analysis of the deposited data

How the results depend on the processing

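No paired analysis was possible because each condition had 1 library. The 30 results were recomputed in 120 values, of which 95 stayed close, 25 moved and 0 changed sign. For a number of peaks or sites, close meant within 1.5 times of it. For a ratio or a share of windows, it meant within the interval of the main value. A fold enrichment of at least 5 removed no member, since the lowest was 6.49, so it says little. Windows narrowed to 50% of their width held 3 P peaks at Klf4, 1 C peak at Klf5, and 0 C and 0 P peaks at Egr2, whose sites all lie in the outer parts. With the P list shortened to the length of the C list, the P-exclusive peaks came to 0 at Klf4 and 0 at Klf5, and Klf5 gained 1 C-exclusive peak, since the weaker P peaks are dropped by construction. Both P-exclusive Egr2 peaks were kept. The shares of windows with at least as many peaks are given for C and then P cells. After a cut-off of 10 on −log10 p they were 22.4% and 14.2% at Klf4, 24.3% and 30.6% at Klf5, and 41.3% and 28.7% at Egr2. Among windows with a peak in any list they were 43.0% and 19.9%, 44.8% and 53.9%, and 74.0% and 52.0%. With 50% of the width they were 12.9% and 14.7%, 30.6% and 26.6%, and 100% and 100%, the last because a window with 0 peaks is matched by all. The lack of replicates limits every comparison.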

Other observations

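The surroundings of the loci were described by 5 windows of the same size on each side. Around Klf4 these 10 windows held between 1 and 8 P peaks at 4 h (median 3.5) and between 0 and 7 C peaks (median 1), so the 6 P peaks of the Klf4 window lay inside that range. Around Klf5 they held 0 to 6 P peaks (median 1.5), and around Egr2 0 to 16 (median 6.5), which places the 3 P peaks of the Egr2 window below the median of its surroundings. Day −2 peaks of C cells were found in 2 of the 10 windows around Klf4, 0 around Klf5 and 2 around Egr2, and those of P cells in 2 of 10 around each.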
